A study of Hapsidospora chrysogena with 9 samples.

Results

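Genes with higher transcript levels in both AcmybA mutants than in the wild type were described in Hapsidospora chrysogena, the mould that produces the antibiotic cephalosporin C and is named Acremonium chrysogenum in the study's title. The 136 genes were chosen by measured values from 8899 in the table. A member had a mean of at least 10 FPKM over the 9 libraries, a mean log2(FPKM + 1) at least 0.5 above wild type in the overexpression strain and also in the knockout, and a value in wild type below both mutants at each of 3 times. FPKM is a count of sequenced fragments scaled by transcript length and library depth; the table's header names no unit, and its values were read as FPKM from their form.

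The libraries were made from polyA RNA of mycelium of 3 genotypes, AcmybA overexpress (AcmybAOE), AcmybA knockout (∆AcmybA) and wild type, each sampled at 48, 72 and 96 h in LPE medium. Each strain and time had 1 library. The labels do not name the promoter that drives overexpression, how the gene was knocked out, or how many transformants were used. The title names AcmybA's family, Myb, and a repressing role in conidiation and in cephalosporin production. In such bulk mycelium, fewer cells of a type and less RNA per cell cannot be told apart.

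Myb proteins bind DNA through Myb repeats and can activate or repress transcription. In fungi, members of the family are known as regulators of development, among them FlbD of Aspergillus nidulans, which acts in conidiation. Loss and overexpression of a regulator are commonly compared to find genes that go opposite ways. The genes described here lie above wild type in both strains by choice. The table identifies genes by protein accessions without names, so the roles of the members are not given, and AcmybA itself was not picked out. Its level in the mutants was therefore not checked.

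Library sums lay between 852915 and 1124539 FPKM, and library medians over all genes between 37.0 and 41.5 FPKM. The labels give no read totals. Relative depth was estimated from what 1 read is worth at low genes, relative to wild type at 96 h, as 1.77, 2.39 and 2.23 in overexpression at 48, 72 and 96 h, as 2.39, 0.829 and 0.892 in the knockout, and as 0.930 and 0.949 in wild type at 48 and 72 h. The knockout value at 48 h is the loosest, with a log-likelihood margin of only 2.47 over the next best value, 1.197. The next smallest margin was 5.84, for overexpression at 96 h, where the next best value was 1.113. All 3 overexpression libraries were deeper than wild type, so depth and that strain cannot be told apart. The knockout libraries at 72 and 96 h were no deeper than wild type. At 48 h both mutant libraries were estimated as deeper than wild type, also with 1.197 for the knockout. Depth and mutant strain thus cannot be told apart at 48 h. The labels describe no repeat culture of any strain and time. The residual of the fit is therefore what strain and time effects added together leave unexplained, and each p-value is read against that.

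Of the 7360 genes with a mean of at least 10 FPKM, 1111 had the stated difference in overexpression and 868 in the knockout. Both conditions were met by 254 genes, and 118 of these were dropped because wild type was not the lowest at every time. Another 430 genes had wild type lowest at all 3 times with a smaller difference in at least 1 mutant. The mirrored rule, with wild type highest, gave 206 genes. Both differences are taken from the same 3 wild-type libraries, so the 2 differences are not independent of each other. Without wild type at 48 h the rule gave 186 genes, among them 90 of the 136, the fewest kept without any 1 library. Without wild type at 72 h it gave 271, among them 120, and without wild type at 96 h it gave 213, among them 116. Fewer conditions apply when a library is left out. Just inside the threshold lay KFH46941.1, KFH40885.1 and KFH42329.1, whose smaller difference was 0.502, 0.506 and 0.509. Just outside lay KFH42903.1, KFH47773.1 and KFH40675.1 at 0.4998, 0.4959 and 0.4955.

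**Figure D1:**
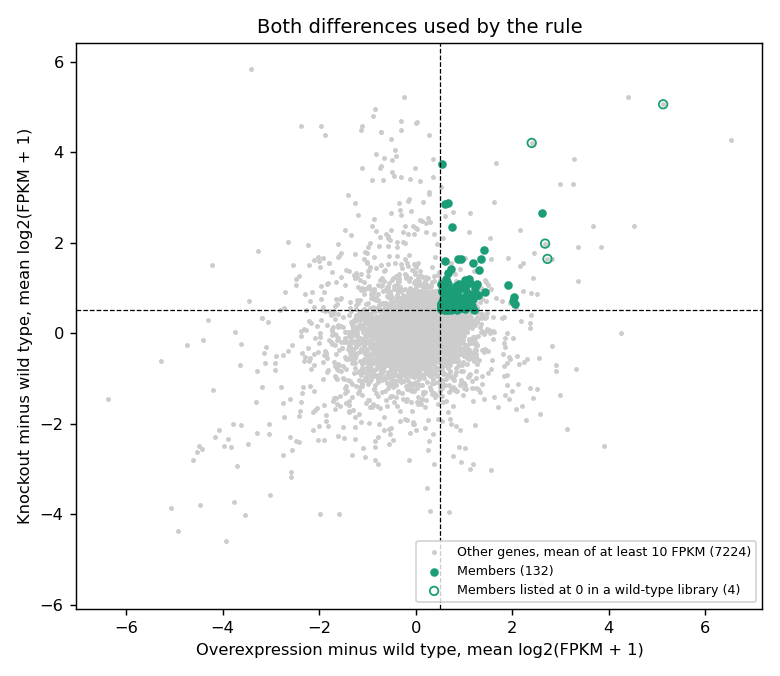
Mean difference from wild type in log2(FPKM + 1), overexpression on the horizontal and knockout on the vertical axis, for genes with a mean of at least 10 FPKM. The 136 members are green, with open circles for the 4 listed at 0 in a wild-type library, dashed lines mark the thresholds of 0.5, and grey points in the same corner are genes in which wild type was not the lowest at every time.

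The median FPKM of the members was 38.1, 35.2 and 34.7 in overexpression at 48, 72 and 96 h, 38.9, 34.8 and 37.3 in the knockout, and 16.9, 19.99 and 20.9 in wild type. Together they took 0.983%, 1.33% and 1.34% of summed FPKM in overexpression, 1.11%, 1.06% and 1.32% in the knockout, and 0.485%, 0.660% and 0.685% in wild type. The most abundant member, KFH45501.1, carried a minor part of each share. Without it the shares were 0.800%, 0.899% and 0.923% in overexpression, 0.868%, 0.822% and 0.854% in the knockout, and 0.368%, 0.456% and 0.483% in wild type. Their mean level over the 9 libraries had a median of 32.7 FPKM and ran from 10.1 to 2760 FPKM, against a median of 53.4 FPKM over the 7360 genes. All 136 passed the filter on low values.

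Most differences were modest. The median log2 difference from wild type was 0.78 in overexpression and 0.77 in the knockout, and 14 members had a log2 difference of at least 1 in both. By time, the median was 0.96, 0.72 and 0.68 in overexpression at 48, 72 and 96 h and 0.99, 0.55 and 0.68 in the knockout. Over the 7360 genes it was 0.12, 0.06 and -0.0058 in overexpression and 0.09, 0.014 and 0.013 in the knockout. The widest gap to wild type was thus at 48 h in both mutants, and the medians over all genes were largest at that time too. Both mutant libraries were also estimated as deeper than wild type at 48 h. Both mutants had their largest difference at 48 h in 46 members (33.8%), against 21.2% of the 7360 genes. In 67 members the highest wild-type library was below the lowest of the 6 mutant libraries, with no overlap between the groups. The same held for 2.23% of the 7360 genes, but the rule used this contrast and nothing is read from the count. By limma, 11 members were called higher in overexpression than in wild type and 11 in the knockout, where 0.755% and 1.17% of all tested genes were called. KFH48597.1 alone was called in both, and these counts too rest on the contrasts that chose the members. Without 1 library they ran from 0 to 9 in overexpression and from 1 to 12 in the knockout.

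**Figure D2:**
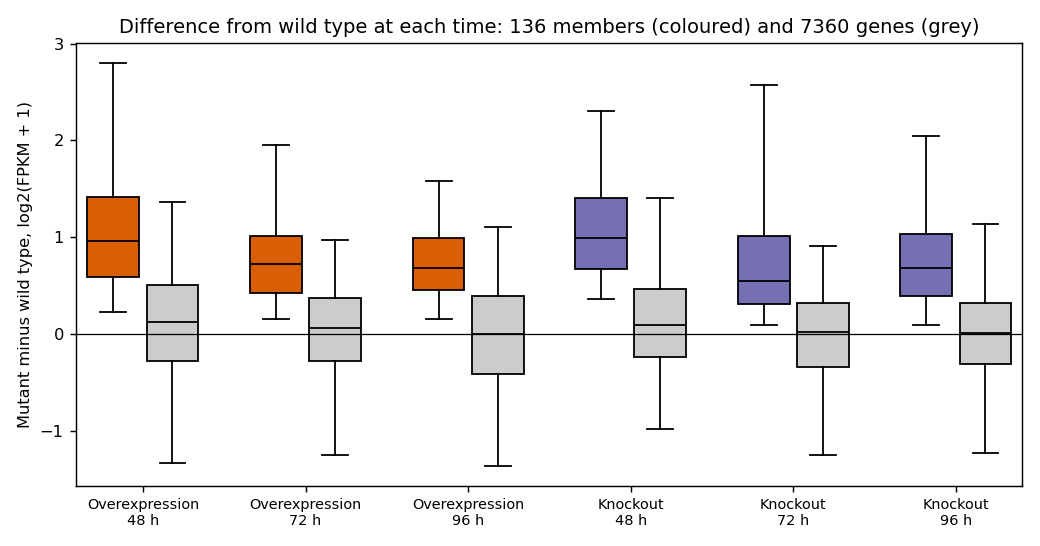
Differences from wild type in log2(FPKM + 1) at each time for the 136 members (coloured) and the 7360 genes with a mean of at least 10 FPKM (grey), overexpression left and knockout right. Boxes span the quartiles with the median as a line, and whiskers the 5th to 95th percentile; member medians run from 0.55 to 0.99 by choice.

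Ranked by the smaller of the 2 differences, the leading members with a value above 0 in every library were KFH41430.1, KFH40346.1, KFH48597.1 and KFH45039.1. KFH41430.1 was at 249, 178 and 115 FPKM in overexpression at 48, 72 and 96 h, at 254, 202 and 107 FPKM in the knockout, and at 6.40, 48.2 and 60.1 FPKM in wild type. Both mutants began high and declined while wild type began low and climbed, so that the gap was widest at 48 h. Its log2 differences were 2.62 in overexpression and 2.66 in the knockout. KFH40346.1 was at 221, 131 and 70.8 FPKM in overexpression, at 217, 170.4 and 129 FPKM in the knockout, and at 76.9, 26.4 and 49.8 FPKM in wild type. It overlapped between strains, since overexpression at 96 h was below wild type at 48 h.

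KFH48597.1 was at 127, 127 and 122 FPKM in overexpression, at 128, 155 and 179 FPKM in the knockout, and at 61.6, 45.7 and 40.0 FPKM in wild type. All 6 mutant libraries were above all 3 wild-type libraries. The knockout was above overexpression at each time, but their difference of -0.29 (overexpression minus knockout, 95% interval -0.81 to 0.23) was not called (limma adjusted p = 0.48). KFH45039.1 was at 45.7, 52.8 and 16.6 FPKM in overexpression, at 32.2, 42.7 and 35.4 FPKM in the knockout, and at 5.74, 34.4 and 11.1 FPKM in wild type. All 3 strains were highest at 72 h for this gene.

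Another 4 members with large differences were listed at 0 in at least 1 wild-type library, and no fold is given for them. KFH49045.1 was at 56.4, 528 and 269 FPKM in overexpression, at 265, 135 and 193 FPKM in the knockout, and at 0, 0 and 189 FPKM in wild type. KFH44325.1 was at 8.26, 14.7 and 14.3 FPKM in overexpression, at 31.8, 37.4 and 73.1 FPKM in the knockout, and at 0, 0 and 13.98 FPKM in wild type. At 96 h wild type was close to the knockout for KFH49045.1 and close to overexpression for KFH44325.1, whose knockout stood above both. KFH48074.1 was at 24.7, 31.0 and 36.1 FPKM in overexpression, at 33.1, 17.8 and 9.96 FPKM in the knockout, and at 19.4, 0 and 4.67 FPKM in wild type. KFH45309.1 was at 53.2, 14.7 and 5.37 FPKM in overexpression, at 12.8, 4.07 and 6.97 FPKM in the knockout, and at 0, 3.36 and 3.24 FPKM in wild type. A listed 0 can be a failed estimate, and each of these 4 genes has at least 1 other value equal in every digit to another gene's. The 189 FPKM of KFH49045.1, for one, is shared with 2 other genes of that library. Such equal values occur at least once in 23 members (16.9%), against 11.01% of the 7360 genes.

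The most abundant member by far was KFH45501.1. It was at 2060.0, 3971 and 3515 FPKM in overexpression, at 2489, 2462 and 5001 FPKM in the knockout, and at 1233, 2144 and 1965 FPKM in wild type. Overexpression at 48 h was below wild type at 72 h, so the strains overlapped across times. KFH41301.1 was at 430.4, 373 and 374 FPKM in overexpression, at 325, 496 and 398 FPKM in the knockout, and at 119, 354 and 324 FPKM in wild type. The gap was widest at 48 h, and at 96 h the 3 strains lay close together. KFH44353.1 was at 747, 354 and 257 FPKM in overexpression, at 398, 372 and 235 FPKM in the knockout, and at 228, 242 and 151 FPKM in wild type, with the overexpression library at 48 h well above the rest. KFH40727.1 was at 349.7, 264 and 199 FPKM in overexpression, at 409, 214 and 199 FPKM in the knockout, and at 156, 103 and 136 FPKM in wild type. All 6 mutant libraries were above wild type, and the mutants were nearly equal at 96 h. KFH45453.1 was at 245, 243 and 216 FPKM in overexpression, at 247, 203 and 168 FPKM in the knockout, and at 109, 181 and 136 FPKM in wild type. The knockout at 96 h was below wild type at 72 h.

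**Figure D3:**
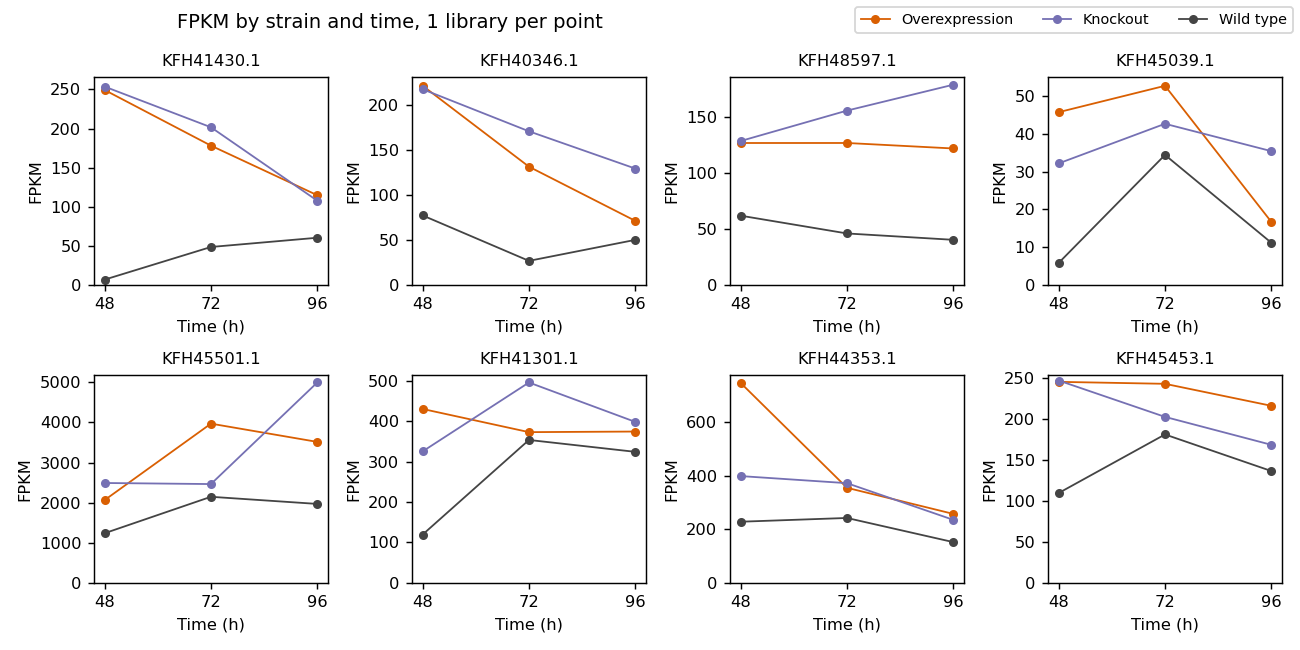
FPKM against time for 4 members with large differences (upper row) and 4 abundant members (lower row), 1 library per point, overexpression in orange, knockout in purple and wild type in black, each panel with its own linear scale from 0. Wild type is the lowest line at every time, and the gap at 48 h is wide for KFH41430.1 and KFH41301.1.

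Because the choice used all 9 libraries, the rule was also applied to 2 times at once and the third time was then examined in libraries that had no part in the choice. From 72 and 96 h, 163 genes were chosen. At 48 h wild type was below both mutants in 95 of them (58.3%), against 38.2% of all genes with the same minimum level. Over wild type, their median at 48 h on the log2 scale was 0.34 in overexpression and 0.64 in the knockout, against 0.12 and 0.09 over all genes.

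From 48 and 96 h, 282 genes were chosen, and at 72 h wild type was below both mutants in 148 (52.5%), against 32.4% of all genes. Median differences at 72 h were 0.44 in overexpression and 0.17 in the knockout, against 0.06 and 0.015 over all genes. From 48 and 72 h, 263 genes were chosen, and at 96 h the order held in 143 (54.4%), against 30.3%. Median differences at 96 h were 0.32 in overexpression and 0.27 in the knockout, against -0.0044 and 0.012.

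A gap of at least 0.5 in both mutants at the time left out was seen in 43 of the 163 genes (26.4%) at 48 h, 45 of the 282 (16.0%) at 72 h and 52 of the 263 (19.8%) at 96 h. Over all genes the shares were 10.2%, 3.32% and 5.75%. The shares at the third time were thus above those over all genes at each of the 3 times, while many chosen genes did not keep the order. The chosen genes were picked for large differences between strains, and how many had the opposite gap at the third time was not counted. Libraries of 1 strain at different times may come from the same culture, so these shares are a description without a test.

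**Figure D4:**
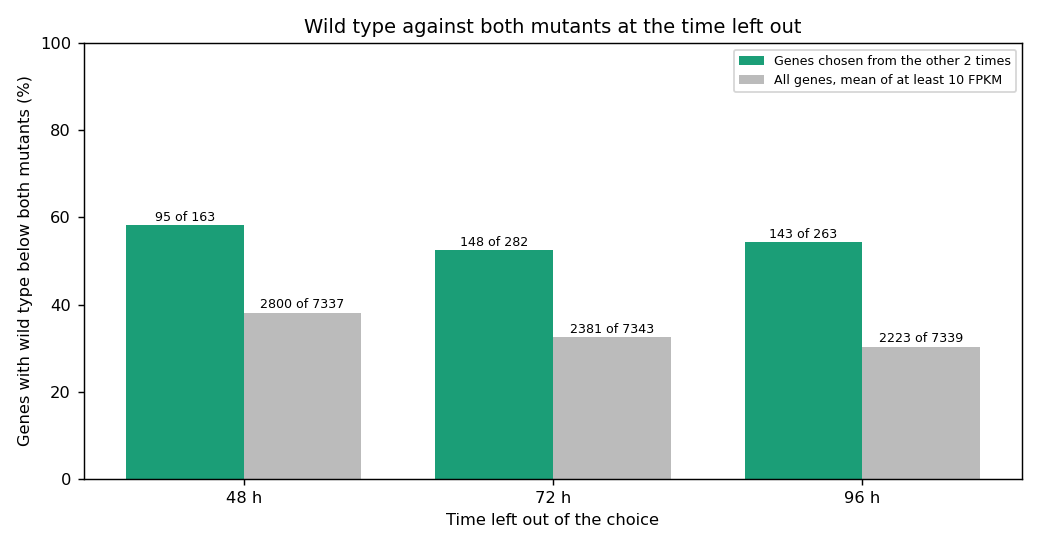
Percentage of genes with wild type below both mutants at a time left out of the choice, for genes chosen by the rule from the other 2 times (green) and for all genes with a mean of at least 10 FPKM (grey), with counts above the bars. The green bars stand at 52.5% to 58.3% and the grey bars at 30.3% to 38.2%.

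Overexpression was set against the knockout, a comparison that the rule did not make, although it uses the same mutant libraries. A gene above wild type in 1 mutant alone cannot be a member, so the members' differences between mutants are narrowed by the choice, and the counts below are read as a description. The size of this difference had a median of 0.19 in the members and 0.32 over all 8482 tested genes on the log2 scale. The tested genes, here and in the other limma comparisons, include genes with a mean under 10 FPKM, which cannot be members. By limma, 2 members were called higher and 3 lower in overexpression, 3.68% of the 136, where 3.5% of all tested genes were called higher, 5.41% lower and 8.91% in either direction. At an unadjusted p under 0.05 there were 13 members (9.56%), against 23.9% of tested genes. The 95% interval of the difference lay within 1 log2 unit of 0 in 93 members (68.4%), against 52.9% of tested genes. For the other members the interval reached a 2-fold difference between the mutants in at least 1 direction. It lay wholly beyond 2-fold in KFH44362.1 (-3.77 to -2.61) and KFH42336.1 (-3.24 to -1.23). Overexpression was above the knockout at all 3 times in 21 members (15.4%), against 23.2% of the 7360 genes, and the knockout was above overexpression in 15 (11.03%), against 20.6%. In the remaining 100 the order of the mutants changed between times.

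KFH44362.1 differed most between the mutants. It was at 14.5, 27.6 and 23.3 FPKM in overexpression, at 109, 362 and 204 FPKM in the knockout, and at 11.2, 15.9 and 15.8 FPKM in wild type. The knockout libraries were several times above all others, while overexpression was little above wild type. The log2 difference of overexpression from the knockout was -3.19 (SE 0.25, limma adjusted p = 0.00103), and the call held in every alternative fit. KFH42336.1 was at 17.4, 128 and 86.6 FPKM in overexpression, at 229, 379 and 249 FPKM in the knockout, and at 12.6, 84.6 and 48.8 FPKM in wild type. Overexpression lay nearer to wild type than to the knockout at each time. The difference was -2.24 (SE 0.43, limma adjusted p = 0.021), and the call ended without overexpression at 48 or 72 h (0.0548 and 0.0693) and with no filter on low values (0.0563). KFH47512.1 was at 5.72, 19.3 and 18.2 FPKM in overexpression, at 16.0, 79.1 and 51.5 FPKM in the knockout, and at 1.39, 12.5 and 16.0 FPKM in wild type. The knockout at 48 h was level with wild type at 96 h. Its difference was -1.59 (SE 0.30, limma adjusted p = 0.0198), and the call ended without the knockout at 48 or 72 h or overexpression at 72 or 96 h (0.0629 to 0.0985).

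In the other direction, KFH41136.1 was at 17.1, 31.2 and 30.0 FPKM in overexpression, at 7.27, 7.42 and 12.5 FPKM in the knockout, and at 2.56, 7.32 and 7.35 FPKM in wild type. At 72 h the knockout and wild type were all but equal. Its difference was 1.42 (SE 0.27, limma adjusted p = 0.0211), and the call ended without the knockout at 72 or 96 h or any overexpression library (0.052 to 0.109). KFH41082.1 was at 66.5, 117 and 175 FPKM in overexpression, at 38.6, 38.6 and 66.6 FPKM in the knockout, and at 24.9, 30.9 and 23.2 FPKM in wild type, with overexpression climbing at each step. The difference was 1.24 (SE 0.30, limma adjusted p = 0.046), and the call ended with no filter, either rescaling or no intensity trend (0.0511 to 0.0871), and without any knockout library, overexpression at 72 or 96 h, or wild type at 48 or 72 h (0.0507 to 0.180). The number called higher in overexpression was 0 without the knockout or overexpression at 72 or 96 h and 1 without the knockout or overexpression at 48 h or wild type at 72 h. The number called lower was 1 without overexpression at 72 h. With equal FPKM totals, where the median difference of all tested genes rises to 0.15, against 0.04 as deposited, 1 member was called higher and 3 lower. With no time term in the fit, of these 5 only the call of KFH44362.1 was kept.

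**Figure D5:**
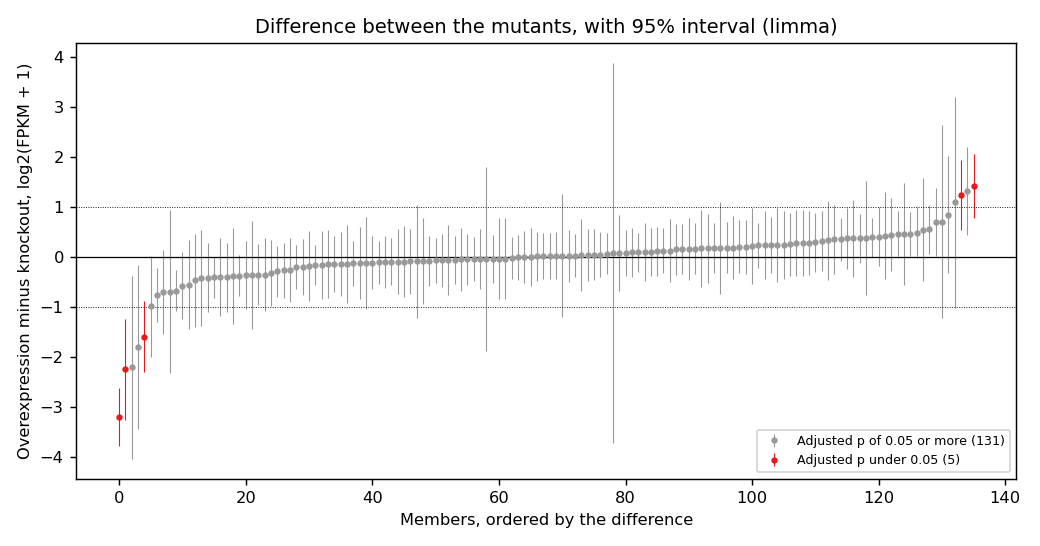
Overexpression minus knockout in log2(FPKM + 1) for the 136 members in rising order, with 95% intervals from limma and dotted lines 1 unit from 0. The 5 called members, in red, lie at the ends, 3 below and 2 above 0, and 93 intervals stay between the dotted lines.

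Differences between times over the strains together were not used by the rule, and the members did not share a time course. By limma over the 3 strains together, 12 members were called higher at 96 h than at 48 h and 9 lower, 15.4% of the 136. Of all tested genes, 5.99% were called higher, 6.19% lower and 12.2% in either direction. The called members are named rising and falling below. The median size of the change was 0.53 on the log2 scale in the members and 0.43 over all tested genes. The 12 rising members had log2 changes from 0.84 to 2.03 and the 9 falling ones from -2.95 to -0.71, and each of the 21 kept its direction between 48 and 96 h in all 3 strains. All 3 strains were highest at 48 h in 25 members (18.4%), against 20.1% of the 7360 genes, at 72 h in 4 (2.94%), against 2.05%, and at 96 h in 7 (5.15%), against 6.86%. In the wild type alone, 37 members (27.2%) were highest at 48 h, against 41.5% of the 7360 genes. Low wild-type values were part of the rule, so this count is not independent of the choice and nothing is read from it.

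KFH44109.1 was among the rising members. It was at 8.24, 57.0 and 49.9 FPKM in overexpression at 48, 72 and 96 h, at 15.2, 34.6 and 60.3 FPKM in the knockout, and at 7.70, 34.4 and 27.1 FPKM in wild type. The change from 48 to 96 h was 2.02 (SE 0.30, limma adjusted p = 0.0143), and the call ended without the knockout or overexpression at 96 h (0.0601 and 0.0652). KFH47512.1, described above, rose by 1.99 (SE 0.30, limma adjusted p = 0.0143), and the call ended without overexpression at 96 h (0.0543). KFH45491.1 was at 10.04, 21.1 and 30.9 FPKM in overexpression, at 5.32, 20.8 and 20.8 FPKM in the knockout, and at 0.895, 20.5 and 11.9 FPKM in wild type. At 72 h the 3 strains were nearly equal, and the gap between them lay at 48 and 96 h. Its change was 2.03 (SE 0.43, limma adjusted p = 0.0313), and the call ended without any knockout library, overexpression at 96 h, or wild type at 48 or 96 h, and with no filter (0.0503 to 0.120). KFH43976.1 was at 32.6, 154 and 159 FPKM in overexpression, at 112, 141 and 163 FPKM in the knockout, and at 21.8, 91.8 and 104 FPKM in wild type. At 48 h overexpression lay nearer to wild type than to the knockout. Its change was 1.66 (SE 0.38, limma adjusted p = 0.0376), and the call ended without the knockout at 96 h, any overexpression library or any wild-type library, and with no filter (0.0631 to 0.142).

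KFH44245.1 fell most. It was at 46.4, 6.29 and 2.08 FPKM in overexpression, at 37.2, 11.9 and 8.18 FPKM in the knockout, and at 15.1, 3.22 and 1.23 FPKM in wild type. All 3 strains declined at each step, with wild type lowest throughout. Its change was -2.95 (SE 0.35, limma adjusted p = 0.0103), and the call held in every alternative (0.0085 to 0.0413). KFH43356.1 was at 52.2, 16.4 and 17.3 FPKM in overexpression, at 44.0, 21.1 and 9.60 FPKM in the knockout, and at 15.2, 10.8 and 9.46 FPKM in wild type. From 48 to 96 h this gene changed by -1.42 (SE 0.32, limma adjusted p = 0.0374). At 96 h the knockout had come down to the wild-type level.

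KFH45550.1 was at 30.4, 13.1 and 17.8 FPKM in overexpression, at 36.7, 10.5 and 9.67 FPKM in the knockout, and at 14.8, 8.62 and 7.86 FPKM in wild type, with a change of -1.13 (SE 0.27, limma adjusted p = 0.0415). KFH48371.1 was at 47.9, 29.9 and 19.0 FPKM in overexpression, at 49.5, 18.5 and 16.1 FPKM in the knockout, and at 18.6, 17.5 and 13.8 FPKM in wild type, with a change of -1.09 (SE 0.28, limma adjusted p = 0.047). In both genes the mutants stood well above wild type at 48 h, and the knockout had come close to it by 72 h. The calls of KFH43356.1 and KFH48371.1 ended without any 1 library other than wild type at 48 h (limma adjusted p up to 0.116 and 0.171), and that of KFH45550.1 without any 1 library (up to 0.139). All 3 also ended with no filter (0.0618 to 0.0743) and with equal totals (0.0591 to 0.0954), and that of KFH48371.1 with no intensity trend (0.0553).

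The counts over time depended on single libraries. The 12 rising members became 5 to 7 without overexpression at 48 or 72 h or any wild-type library, 1 without the knockout at 96 h and 0 without overexpression at 96 h. The 9 falling members became 6 without wild type at 48 h and 1 or 2 without any other library. With equal FPKM totals the median change of all tested genes was 0.08, against -0.06 as deposited, and 15 members were called rising and 1 falling. Whether the time course differed between strains was examined with a slope per 24 h in each strain. The rule required wild type below both mutants at every time, so genes that cross wild type between times cannot be members. The members' slope differences from wild type are therefore restricted by the choice. Their counts and medians below are read as a description. No member was called by limma, either for overexpression against wild type or for the knockout against wild type, and 0% of all tested genes were called. At an unadjusted p under 0.05 there were 10 members (7.35%) for overexpression and 7 (5.15%) for the knockout, against 9.34% and 5.51% of tested genes. The median slope difference of the members was -0.10 in overexpression and -0.20 in the knockout, against -0.04 and -0.05 over all tested genes. These medians rested on single libraries and on scale. The members' median in overexpression was -0.06 without wild type at 48 h and -0.26 without wild type at 96 h. In the knockout it was -0.04 without the knockout at 48 h and -0.03 without wild type at 48 h. In overexpression it was -0.04 with median-of-ratios scaling, and with equal totals its sign turned, to 0.04 in the members and 0.10 over all tested genes.

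In some members 1 library stood far above the others, and the following were picked after their values were seen. KFH42791.1 was at 9.69, 27.3 and 19.4 FPKM in overexpression, at 11.6, 86.2 and 548 FPKM in the knockout, and at 3.77, 19.1 and 14.7 FPKM in wild type. KFH42099.1 was at 162, 85.6 and 74.7 FPKM in overexpression, at 85.1, 85.9 and 598 FPKM in the knockout, and at 62.4, 65.8 and 53.8 FPKM in wild type. Both were more than 3-fold higher in the knockout at 96 h than in any other library. KFH48024.1 was at 58.8, 18.3 and 6.89 FPKM in overexpression, at 15.1, 8.99 and 8.71 FPKM in the knockout, and at 6.11, 2.83 and 5.22 FPKM in wild type, with the overexpression library at 48 h apart from the rest. Together with KFH45309.1 these are the 4 members (2.94%) in which the highest library was at least 3-fold above the next on the FPKM + 1 scale, against 0.883% of the 7360 genes. These single libraries have no replicate check.

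Neighbouring accession numbers were held by 3 pairs of members, KFH41421.1 with KFH41422.1, KFH44245.1 with KFH44246.1, and KFH45453.1 with KFH45454.1. The 6 genes are 4.41% of the members, and 3.07% of the 7360 genes have a number next to a member's. Whether such genes are neighbours in the genome was not analysed here.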

How the data were processed

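The authors deposited 1 table with a value for each of 8899 genes in 9 libraries. Per the submitters' processing notes, CASAVA and HISAT2 2.0.5 were used, with no role or order named. No genome build, annotation or counter is named in the labels or the file. Only library names head the columns, and the deposited values, decimals with unequal sums per library, were treated as FPKM, fragments scaled by transcript length and library depth by the authors. All 9 value columns matched a library title.

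Values were taken as log2(FPKM + 1), so that fold changes of low genes are understated. The 8482 genes that reached 1 FPKM in 3 or more libraries were fitted by limma 3.58.1 in R 4.3.3, with strain and time as factors and a prior variance that follows mean level. Two-sided p-values were adjusted by Benjamini-Hochberg over these genes, with a threshold of 0.05. This fit left 4 residual degrees of freedom, and a fit with a slope per 24 h in each strain left 3. The test and the depth estimate were tried on simulated data with independent noise in each library. Such data do not stand for repeat cultures, and the outcomes are not reported here. Because the values are FPKM, no count test was run. Scaling, pseudocount, low-value filter, trend, time term and the set of libraries were varied.

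The rule, the members and the tests were chosen with earlier results of these data known. Genes named were the 8 members with the largest smaller difference from wild type, the 5 with the highest mean FPKM, and up to 4 in each direction with the largest called differences between mutants and between 96 and 48 h; members with 1 high library and pairs of neighbouring accessions were added after their values were seen. The 8 lists of gene symbols drawn up for cephalosporin biosynthesis, its regulators, conidiation, oxidative stress, heat shock, autophagy, arthrospores and cell wall, and nitrogen and sulfur metabolism matched 0 identifiers, so no pathway result is given.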

Additional observations from a re-analysis of the deposited data

How the results depend on the processing

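The strains are matched by time, and the reported fit holds time as a block with 4 residual degrees of freedom; the fit with no time term is its unpaired counterpart. No paired analysis by replicate number was possible because the labels give no replicate numbers. The rule gave 99 to 152 genes under other pseudocounts, scalings and mean minimums, and 126 to 271 without 1 library. Members called higher in overexpression than in the knockout numbered 2, and 1 with no filter on low values, with either rescaling or with no intensity trend, 0 with no time term, and 0 to 2 without 1 library. Those called lower numbered 3, 2 with no filter, 4 with median-of-ratios scaling, 1 with no time term and 1 to 4 without 1 library. The 12 rising members became 8 with no filter, 15 with either rescaling and 0 to 15 without 1 library. The 9 falling ones became 3 with no filter, 1 with equal totals and 1 to 6 without 1 library. Slope calls stayed at 0 in every alternative. Calls against wild type, which the rule favours, numbered 11 in the knockout, 7 with a pseudocount of 0.1 or no trend, 2 with no filter, 3 with no time term and 1 to 12 without 1 library. In overexpression they numbered 11, 1 with no filter, 2 with no time term and 0 to 9 without 1 library. A fit with fewer libraries also has fewer degrees of freedom, and a fit without time puts time differences into the residual. The 14 differences given with a p for named genes kept their sign in all 202 values under the alternatives. That of KFH48597.1, with 15 of these values, was not called in the reported fit. The calls of the rest were lost in 77 values. The other 36 differences of named genes, none called, changed sign in 39 of 523 values. The depth behind each value is known only as a ratio between libraries.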
